A study of Mus musculus with 30 samples.

Results

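In an OK-seq list of 2844 replication initiation zones of mouse embryonic stem cells, 215 zones broke between genes in gene-crowded surroundings, 7.56% of the list (Wilson 95% interval 6.64 to 8.59). A zone entered this set when the midpoint of its 1 kb breakpoint bin lay in no protein-coding gene body and had more than 10 protein-coding gene starts or ends within 100 kb in the RefSeq annotation of mm10. Of the other 2629 zones, 240 had equally crowded surroundings but a breakpoint inside a coding gene body, 1799 broke between genes with 10 ends or fewer within reach, and 590 broke inside a gene in such less crowded surroundings. The rule read gene positions alone, so the width, the spacing and the frequency of the zones were free to vary. The gene ends near the breakpoint were fixed by it and are given as a description.

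The library came from wild-type E14TG2a cells, an embryonic stem cell line of the mouse, kept in medium with LIF, a GSK3 inhibitor and a MEK inhibitor, and labelled with 10 µM of the thymidine analogue EdU for 2 min. The series holds 30 samples in 18 groups and asks how parental histones are passed to the new DNA strands and what the helicase subunit MCM2 contributes; the other 29 samples were not analysed here. With 1 library there was no replicate error and no comparison of genotypes, and no p-value was computed. The list gives positions and distances without reads or expression, so the depth is unknown and the labelled cell type was not checked against marker genes.

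OK-seq reads Okazaki fragments, the short pieces in which the lagging strand is made, and their strand shows which way a fork travels. An initiation zone is a stretch over which leftward and rightward forks part, and replication starts at variable places within it. In mammalian cells such zones are known to lie often beside active genes, where forks leave the zone in the direction in which the gene is transcribed. Crowded intergenic stretches are where neighbouring promoters lie closest together and where many short genes sit. Some of these genes are widely expressed, and others stand in the receptor arrays described below. Every interval is a 95% interval that covers counting error only and treats its units as independent: zones in most cases, but both sides of each zone for gene cover and its direction, and genes where genes are counted. Sides and genes of the same zone are not independent, so those intervals are too narrow.

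Among flanking genes with a promoter in the RefSeq table, the 6 that start nearest to such a breakpoint, no more than 1 per zone, are shown because their promoters are the sequence from which transcription sets out next to the place where forks part. Flanking genes outside that table, such as Hyou1 with an end 0.131 kb from a breakpoint, could not be ranked. Each runs from 250 bases before the annotated start to 50 bases after it, 300 bases in all, 5′ to 3′ on the strand of the gene, and comes from RefSeq (GRCm38.p6, which is mm10). Distances here run from the start in that table, which can lie inside the outermost gene end used elsewhere. Every distance from a gene to a breakpoint is measured to the midpoint of the 1 kb breakpoint bin. Distances smaller than the bin, and their order, are therefore not resolved by the list. The motifs searched were the GC box with the letters GGGCGG, the CCAAT box named for its letters, and the TATA box with the letters TATAAA (matches of different motifs may overlap). Capitals mark a match on either strand, so the reverse complement of a motif is in capitals too; a match is a description of the letters and not a site of binding. D630023F18Rik lies at chr1:65123165-65123464 on the minus strand and starts 0.286 kb from the breakpoint. Zfp74, a zinc finger gene, lies at chr7:29954016-29954315 on the minus strand, 0.435 kb away. Sat2, which encodes a member of the spermidine/spermine acetyltransferase family, lies at chr11:69621802-69622101 on the plus strand, 0.552 kb away. Tle2, a Groucho-type corepressor, lies at chr10:81575037-81575336 on the plus strand, 0.787 kb away. Htd2, an enzyme of mitochondrial fatty acid synthesis, lies at chr14:8080063-8080362 on the plus strand, 0.813 kb away. Rpa2, a subunit of the single-stranded DNA binding complex RPA that coats DNA at forks, lies at chr4:132768110-132768409 on the plus strand, 0.860 kb away.
D630023F18Rik: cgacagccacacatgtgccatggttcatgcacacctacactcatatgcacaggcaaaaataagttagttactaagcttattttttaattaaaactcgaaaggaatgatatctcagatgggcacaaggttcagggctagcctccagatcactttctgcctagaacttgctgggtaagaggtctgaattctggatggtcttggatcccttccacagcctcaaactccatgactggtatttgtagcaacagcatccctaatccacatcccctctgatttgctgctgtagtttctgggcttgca
Zfp74: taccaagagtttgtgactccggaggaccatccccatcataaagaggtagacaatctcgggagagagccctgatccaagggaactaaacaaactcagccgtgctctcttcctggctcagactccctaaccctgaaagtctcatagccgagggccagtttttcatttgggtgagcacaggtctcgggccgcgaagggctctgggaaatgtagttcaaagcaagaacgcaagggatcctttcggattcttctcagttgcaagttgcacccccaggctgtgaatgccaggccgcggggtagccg
Sat2: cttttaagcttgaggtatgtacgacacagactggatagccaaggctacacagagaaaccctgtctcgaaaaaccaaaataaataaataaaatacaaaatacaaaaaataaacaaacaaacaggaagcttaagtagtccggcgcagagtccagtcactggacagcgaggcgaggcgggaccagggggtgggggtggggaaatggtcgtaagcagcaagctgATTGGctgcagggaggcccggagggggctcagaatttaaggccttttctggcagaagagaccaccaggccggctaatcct
Tle2: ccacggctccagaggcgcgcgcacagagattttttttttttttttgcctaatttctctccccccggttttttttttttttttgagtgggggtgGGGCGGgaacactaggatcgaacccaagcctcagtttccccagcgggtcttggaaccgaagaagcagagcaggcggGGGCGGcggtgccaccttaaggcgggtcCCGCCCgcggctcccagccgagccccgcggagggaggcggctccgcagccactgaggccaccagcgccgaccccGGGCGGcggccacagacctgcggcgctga
Htd2: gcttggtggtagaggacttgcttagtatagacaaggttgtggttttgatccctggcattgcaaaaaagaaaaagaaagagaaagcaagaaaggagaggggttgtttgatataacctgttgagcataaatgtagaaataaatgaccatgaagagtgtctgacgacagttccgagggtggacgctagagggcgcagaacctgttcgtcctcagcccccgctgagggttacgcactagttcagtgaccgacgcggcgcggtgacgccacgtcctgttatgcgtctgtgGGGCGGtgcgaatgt
Rpa2: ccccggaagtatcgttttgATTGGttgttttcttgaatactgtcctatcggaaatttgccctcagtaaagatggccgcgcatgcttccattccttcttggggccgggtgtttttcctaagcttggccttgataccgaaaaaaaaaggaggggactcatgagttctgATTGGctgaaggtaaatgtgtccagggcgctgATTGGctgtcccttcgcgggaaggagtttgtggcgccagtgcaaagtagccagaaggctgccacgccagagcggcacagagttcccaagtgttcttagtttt

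These 6 promoters had little in common beyond their place. The Tle2 promoter was 64.7% G and C with 28 CpG dinucleotides and held GC boxes alone among the searched motifs. The D630023F18Rik promoter was 45% G and C with 2 CpG dinucleotides and held no searched motif, and neither did the Zfp74 promoter, with 12 CpG dinucleotides. The Rpa2 promoter held CCAAT boxes on the opposite strand, Sat2 held one such box, and Htd2 held a GC box.

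Promoters that faced a breakpoint resembled those of other coding genes in base composition. Over the 219 genes with their start towards a member's breakpoint, the median promoter was 58.7% G and C (57.0 to 60.3) with 15 CpG dinucleotides (13 to 18). Over the 123 flanking genes with their far end towards it the medians were 57.7% and 16, and over all 16457 coding genes with a promoter in the table they were 56.7% and 14. A GC box stood in 60.3% of the promoters that faced a breakpoint, in 48.8% of those that faced away and in 47.3% of all, or 51.2% of all without olfactory and vomeronasal receptor genes. A CCAAT box stood in 37.9% of the promoters that faced a breakpoint and in 39.1% of all, and a TATA box in 9.13% and 13.5%. Without receptor genes the shares of all promoters were 38.7% and 11.4%. Coding genes with more than 10 gene ends around them, receptors left out, had 4559 promoters. Of these, 49.7% held a GC box, 41.0% a CCAAT box and 12.2% a TATA box. No interval was computed for the motif shares.

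Breakpoints were more frequent in crowded sequence between genes than in the rest of the genome. Such sequence made up 88.4 Mb, or 3.69% of all 1 kb bins, and held 2.43 breakpoints per Mb (exact Poisson interval 2.12 to 2.78), against 1.14 per Mb in all other sequence (1.09 to 1.18), a ratio of 2.14. Crowded sequence inside gene bodies held 2.18 per Mb (1.91 to 2.48), so between those crowded kinds the ratio was 1.11 and the intervals overlapped. Sequence between genes in less crowded surroundings held 1.36 per Mb (1.29 to 1.42), and less crowded gene bodies 0.676 per Mb (0.622 to 0.733).

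The frequency was not highest where gene ends were densest. Between genes it was 2.76 per Mb (2.31 to 3.28) with 11 to 15 ends within 100 kb, 1.81 (1.33 to 2.42) with 16 to 20 and 2.43 (1.71 to 3.35) with more than 20. Below the limit of the rule it was 3.28 per Mb (2.98 to 3.59) with 6 to 10 ends, 2.61 with 3 to 5, 1.59 with 1 or 2, and 0.429 with 0. Inside gene bodies the frequency climbed through every class from 3 to 5 ends upward, with 0.726 per Mb at 3 to 5 ends, 1.36 at 6 to 10, 1.96 at 11 to 15, 2.40 at 16 to 20 and 2.57 above 20. The share of breakpoints inside a gene body was thus 52.7% of 455 in crowded surroundings, where 55.4% of bins were gene body, against 24.7% of 2389 elsewhere, where 39.7% were.

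Clusters of receptor genes made up a large part of the crowded sequence and held few zones. Olfactory receptors and vomeronasal receptors, which detect odours and pheromones, stand in dense arrays of short genes that are largely silent outside sensory neurons. Where at least 50% of the gene ends were theirs, 23.8 Mb of crowded sequence between genes held 6 breakpoints, or 0.252 per Mb (0.0925 to 0.548). The remaining 64.6 Mb held 209, or 3.24 per Mb (2.81 to 3.70), against 2.22 per Mb (1.95 to 2.52) in crowded gene bodies treated alike, a ratio of 1.46. Without the receptor surroundings the 3 classes of gene ends held 3.52, 2.64 and 3.17 per Mb in rising order of ends, against 3.53 with 6 to 10 ends. This split was chosen after the values were seen.

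**Figure D1:**
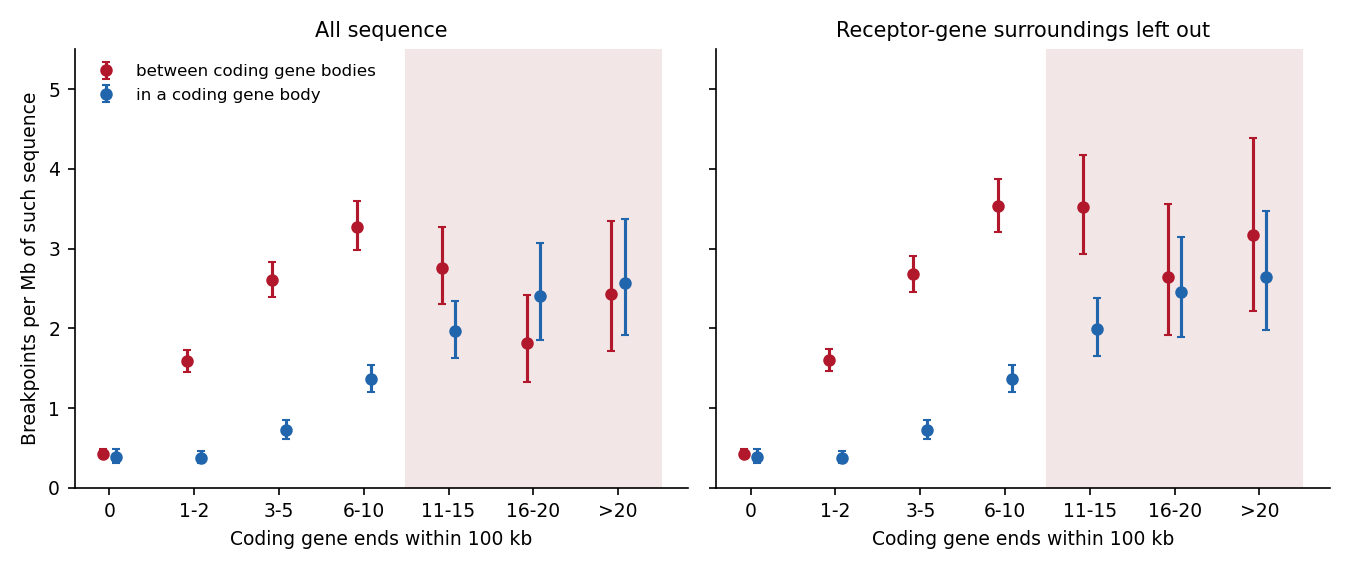
Breakpoints per Mb of sequence (y axis) by the number of coding gene ends within 100 kb (x axis), for sequence between coding gene bodies (red) and in them (blue), over all sequence at left and without surroundings in which at least 50% of the ends belong to receptor genes at right. Points are densities, bars exact Poisson 95% intervals, and the shaded classes are those of the crowded zones; with receptor surroundings left out the red points at 11 to 15 ends and at 6 to 10 ends lie at 3.52 and 3.53 per Mb.

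The gaps that held the breakpoints were short. The gap between the coding genes on either side had a median of 21.7 kb (18.5 to 25.1), with quartiles of 13.1 and 33.2 kb, and ran from 0.568 to 1935 kb. All sequence that meets the same rule lay in gaps with a median of 23.9 kb, or 22.5 kb without receptor surroundings. The nearest coding gene end lay 4.31 kb from the breakpoint in the median (3.26 to 5.06), against 4.94 kb for that sequence, and the breakpoint stood at a median of 26.7% of the gap from its nearer side (23.3 to 30.8), against 24.7%. By these measures the breakpoints were spread over the gaps much as the bins were, neither drawn to the gene ends nor to the middle. Zones between genes in less crowded surroundings broke in gaps with a median of 91.8 kb and 19.2 kb from the nearest end.

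Very long gaps held few breakpoints for their length. Gaps of over 40 kb held 1.41 breakpoints per Mb (0.959 to 2.00), against 2.83 (2.27 to 3.50) in gaps of 20 to 40 kb and 3.10 (1.77 to 5.03) in gaps under 5 kb. Without receptor surroundings the value over 40 kb was 1.77 (1.19 to 2.55). It was then highest at 20 to 40 kb, with 4.28 (3.41 to 5.31), followed by 3.75 at 10 to 20 kb. Gaps of 5 to 10 kb held 2.75 and those under 5 kb 3.17 (1.81 to 5.15). The shortest gap, 0.568 kb, lay between Dtx3, which encodes an E3 ubiquitin ligase, and Pip4k2c, a phosphatidylinositol phosphate kinase gene, on chromosome 10. The longest, 1935 kb, lay on chromosome 12 between Mdga2, a neural adhesion gene 763 kb long, and Rps29 of the small ribosomal subunit, and its breakpoint was 4.22 kb from Rps29. Of 6916 gaps with sequence that meets the rule, 213 (3.08%) held such a breakpoint, and 2 gaps held 2 each.

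The genes on either side tended to be transcribed away from the breakpoint. Both strands were known for 144 of the 215 zones, and in 53 of them (36.8%, 29.4 to 44.9) the flanking genes diverged, against 24.2% of all sequence that meets the same rule, or 25.8% without receptor surroundings. They ran in the same direction in 76 (52.8%, 44.7 to 60.8), against 60.7% of that sequence, and converged in 15 (10.4%, 6.41 to 16.5), against 15.2%. Per Mb of such sequence this came to 3.56 breakpoints in diverging gaps (2.67 to 4.66), 2.03 in gaps between genes of 1 direction (1.60 to 2.55) and 1.61 in converging gaps (0.899 to 2.65). Zones between genes in less crowded surroundings had a like share, with 425 of 1184 (35.9%, 33.2 to 38.7) between diverging genes, against 26.2% of their sequence.

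**Figure D2:**
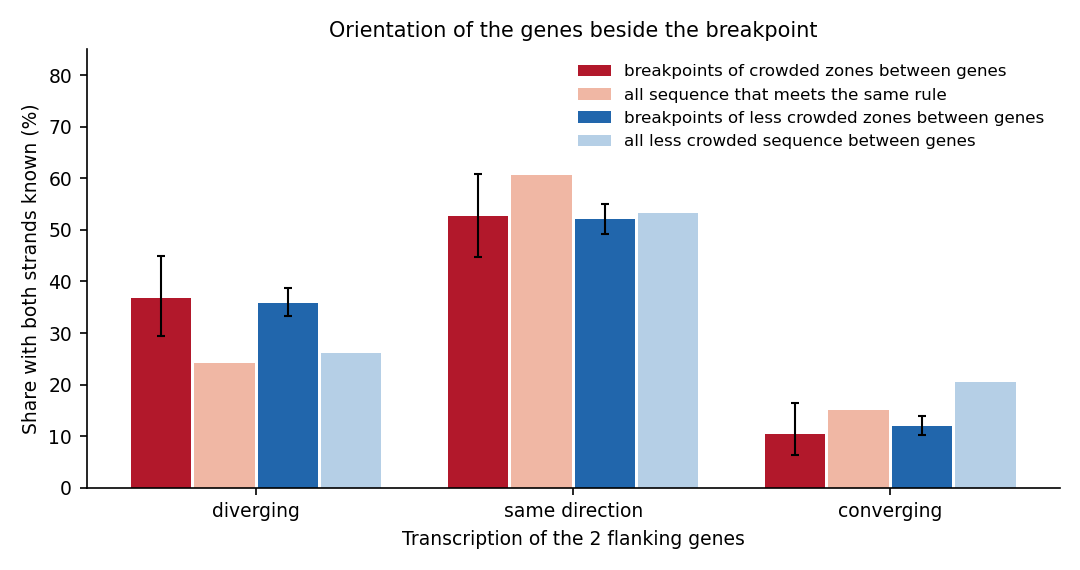
Share of breakpoints or of 1 kb bins (y axis, percent of those with both strands known) by the transcription of the 2 flanking genes (x axis), for crowded zones between genes (dark red), all sequence that meets the same rule (light red), less crowded zones between genes (dark blue) and their sequence (light blue). Bars on the zones are Wilson 95% intervals; diverging genes flanked 36.8% of the crowded zones and 24.2% of the sequence that meets the rule.

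The breakpoints were more often nearer to a gene start than to a gene stop. Only genes of known strand were counted, at any distance, which left 212 members, none of them on chromosome 18. Genes of unknown strand were passed over, so a nearer start or stop can be missed. Of these members, 63.2% (56.5 to 69.4) had a coding gene start nearer than a stop, against 53.5% of the sequence that meets the rule. The median distance to a start was 9.29 kb (7.54 to 11.6), against 9.12 kb, and to a stop 13.7 kb (12.2 to 17.1), against 9.92 kb. Among genes of known strand the breakpoints thus lay as near to starts as the sequence that meets the rule, and farther from stops. Among less crowded zones between genes a start was nearer in 62.2%.

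Gene bodies closed in on the breakpoint from both sides. At 20 kb from the breakpoint 59.3% of positions lay in a coding gene body, at 50 kb 72.6% (68.2 to 76.6), at 70 kb 71.4%, at 100 kb 59.8% and at 300 kb 52.8%. At 50 kb the sequence that meets the same rule reached 43.2%, or 54.9% without receptor surroundings, and less crowded zones between genes 50.6%. Zones with crowded surroundings and a breakpoint inside a gene reached 75.8%. Gene cover around the crowded zones was highest at 40 kb (73.7%) and was 68.6% at both 30 and 80 kb. The rule leaves no cover at the breakpoint and asks for gene ends within 100 kb, so this rise and fall is partly built in. The median arms were 50 kb on the left and 49 kb on the right, but the cover was not aligned to the edges of each zone.

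Within that cover, transcription led away from the breakpoint near it and in no preferred direction farther out. Of the gene-body cover with 1 known direction, 67.6% was transcribed away at 20 kb (61.1 to 73.5), 57.7% at 50 kb (51.6 to 63.5) and 49.5% at 100 kb (42.9 to 56.2). Less crowded zones between genes held a higher share for longer, with 68.6% at 20 kb, 65.3% at 50 kb and 57.9% at 100 kb. Counted by gene midpoints, 291 of 488 genes at 20 to 50 kb (59.6%, 55.2 to 63.9) led away, against 59.6% for all other zones and 51.2% for the sequence without receptor surroundings. At 100 to 200 kb 47.8% of 980 genes did so.

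**Figure D3:**
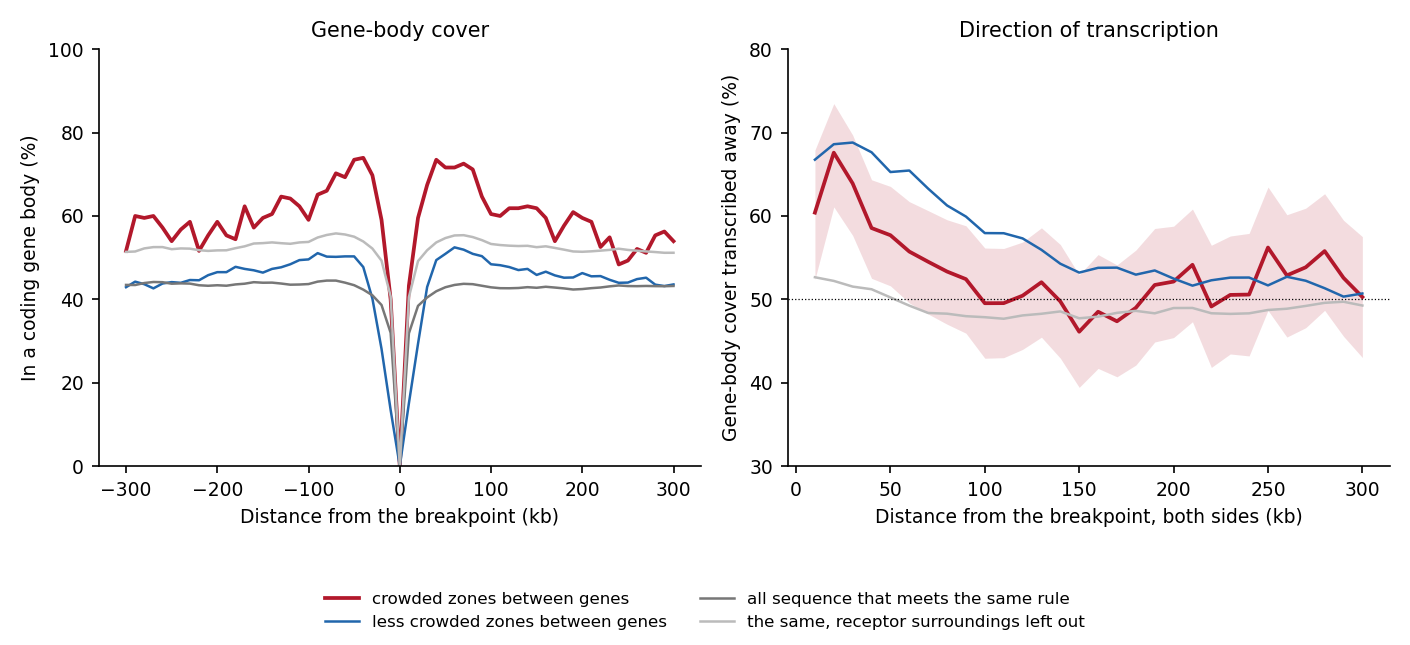
Left, share of positions in a coding gene body (y axis, percent) by distance from the breakpoint (x axis, kb); right, share of gene-body cover transcribed away from the breakpoint (y axis, percent) by distance with both sides joined (x axis, kb). Lines are crowded zones between genes (red, 215 zones; shaded at right, Wilson 95% interval over the positions on both sides with a known direction), less crowded zones between genes (blue), and sequence that meets the same rule (greys); gene-body cover of the crowded zones stands at 72.6% at 50 kb and the share transcribed away at 67.6% at 20 kb.

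The zones were as wide as others. Their width, the distance between the outer bins, had a median of 115 kb (105 to 123) and quartiles of 82 and 141 kb, and ran from 45 to 200 kb, against a median of 112 kb (109 to 113) for all other zones. The arms from the breakpoint to the edges, 50 and 49 kb in the median, compared with 51 and 52 kb in all other zones. The arms differed by a median of 25.6% of the width (22.6 to 30.4), against 23.9% (22.7 to 25.2). Widths of 70 kb or less were found in 29 zones (13.5%), against 418 (15.9%).

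An arm of 100 kb is the longest that the list holds, so such a zone may be cut short. Among the members 33 (15.3%, 11.1 to 20.8) had an arm at this limit, against 239 of the others (9.09%, 8.05 to 10.3), and the share over the whole list was 9.56%. Crowded zones inside genes had 33 of 240 (13.8%), less crowded zones between genes 8.89% and those inside genes 7.80%. Members with an arm at the limit had a median width of 157 kb and those without 103 kb. The width is the sum of both arms, so this difference is partly built into the split. When the point midway between the edges took the place of the breakpoint, 9.95% of the zones then chosen had an arm at the limit, against 9.54% of the others, so the difference was not seen with that choice.

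Breakpoints of these zones stood close to other breakpoints. The nearest one was at a median of 274 kb (238 to 298), against 367 kb (351 to 388) for all other zones, 267 kb for crowded zones inside genes and 388 kb for less crowded zones between genes. Within 200 kb there was another breakpoint for 70 members (32.6%, 26.6 to 39.1), against 24.6% of the others, and for 11 members (5.12%) none lay within 1000 kb, against 12.5%. The neighbour was itself in crowded surroundings for 20.9% (between genes) and 27.0% (inside a gene) of the members, against 6.92% and 7.30% of the others. Breakpoints less than 200 kb apart can share the gene ends that the rule counts. This contrast is thus partly set by the rule and is a description. Overlap with another zone was as frequent, in 13 members (6.05%) and 161 others (6.12%). Overlapping entries can list 1 stretch more than once: on chromosome 10 both breakpoints between Tle5 and Tle2 had the same edges, 81503001 and 81633000, and a distance of 5.999 kb between the bins.

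**Figure D4:**
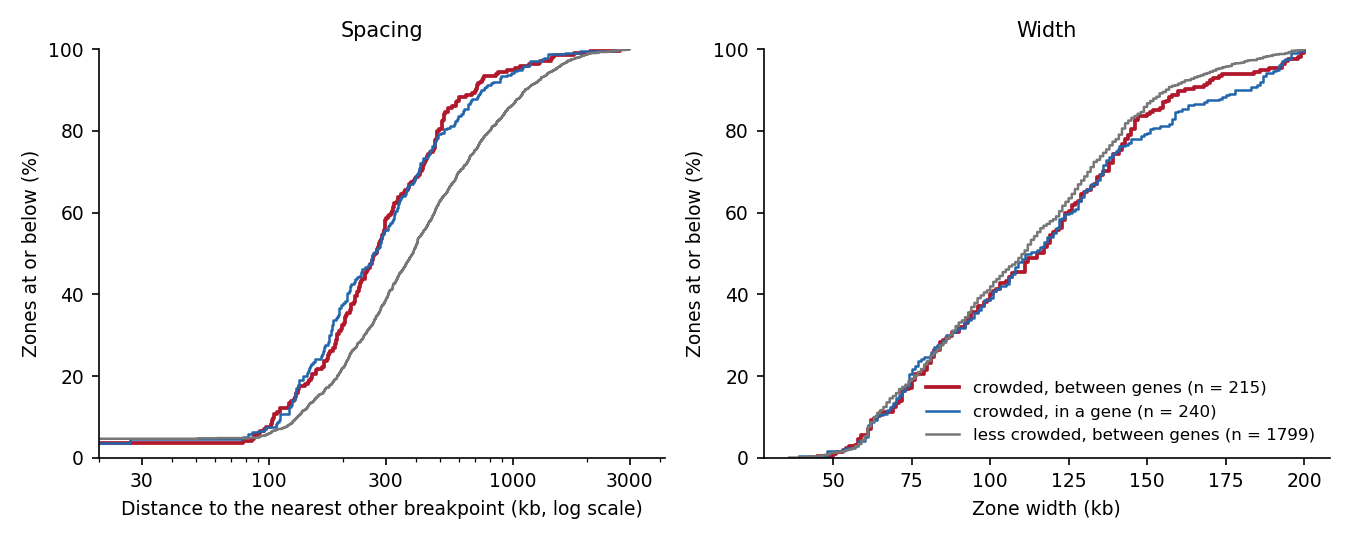
Cumulative share of zones (y axis, percent) by distance to the nearest other breakpoint (left, kb, log scale) and by zone width (right, kb) for 215 crowded zones between genes (red), 240 crowded zones inside genes (blue) and 1799 less crowded zones between genes (grey). Both crowded kinds lie left of the grey line for spacing, with medians of 274 and 267 kb against 388 kb, while the median widths of 115, 112 and 111 kb lie close together.

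The outer edges often lay inside genes. The left edge was in a coding gene body in 145 zones (67.4%, 60.9 to 73.4) and the right edge in 157 (73.0%, 66.7 to 78.5), against 56.3% and 56.5% of all other zones. At a fixed 50 kb from the members' breakpoints, near the length of the median arms, gene bodies covered 72.6% of positions (68.2 to 76.6). The edge shares were thus close to the cover at that distance. Both edges were in gene bodies in 112 zones (52.1%, 45.4 to 58.7), against 34.9%, and neither in 25 (11.6%), against 22.1%. Crowded zones inside genes had 66.7% at the left edge, 71.3% at the right and 47.5% at both. Less crowded zones inside genes were also like the members, with 70.8%, 72.4% and 53.1%, and 9.83% at neither. The low value of all other zones came with less crowded zones between genes, of which 27.3% had both edges in gene bodies. A member zone held an end of a median of 5 coding genes, and 214 of the 215 held at least 1; the exception, at chr2:32480001-32532000, lay between Naif1 and Fam102a.

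The genes beside the breakpoints were of moderate length. The 430 flanking genes had a median length of 13.2 kb (11.8 to 15.0), against 5.90 kb for genes beside the sequence that meets the rule and 9.76 kb without receptor surroundings. All coding genes had a median of 17.6 kb, and genes beside less crowded zones 55.1 kb.

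The members ranged widely in gene number as well as in width. The number of gene ends within 100 kb had a median of 14, quartiles of 12 and 17 and a maximum of 50, with 132 zones at 11 to 15 ends, 46 at 16 to 20 and 37 above 20. The median width was 117 kb (103 to 124), 100.5 kb (82 to 127) and 119 kb (96 to 138) in these classes in rising order of ends, with overlapping intervals and no trend. The median gap was 25.9, 18.3 (14.1 to 21.9) and 17.3 kb (13.0 to 23.7) in the same order. More gene ends within a fixed reach leave shorter gaps, so this is a description. The median gap of all sequence fell likewise, from 32.5 kb with more than 6 ends to 23.9 with more than 10 and 19.9 with more than 15. Just inside the rule, 38 zones with 11 ends had a median width of 123.5 kb, and just outside it 48 zones between genes with 10 ends had 118.5 kb.

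The most crowded zone spanned chr4:88715001-88854000, over the cluster of type I interferons, the antiviral cytokines. It had 50 gene ends within 100 kb, a width of 138 kb and a right arm at the limit, and its breakpoint lay between Klhl9, a cullin adaptor gene 31.0 kb to the left, and Gm13271, 1.37 kb to the right. It held an end of 22 coding genes, Ifna1, Ifna4, Ifna5, Ifna6, Ifna7 and Ifna11 among them.

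The next most crowded zone, chr19:8825001-8918000, had 42 ends and broke between Lrrn4cl and Ubxn1, 8.05 kb from the end of Ubxn1. The zone chr11:120619001-120704000 had 35 ends and broke 4.31 kb from Notum, which encodes a secreted Wnt deacylase, with Aspscr1 on the right. Both zones were of ordinary width, at 92 and 84 kb.

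A pair of the most crowded zones overlapped on chromosome 11. The left one, chr11:69526001-69722000, had 31 ends and a width of 195 kb and broke between the diverging genes Shbg, which encodes sex hormone-binding globulin, 3.47 kb away, and Sat2, 0.496 kb away. The right one, chr11:69687001-69742000, had 34 ends and a width of 54 kb, among the 5 narrowest, and broke between Tnfsfm13, at 13.4 kb, and Polr2a, at 24.5 kb, which encodes the largest subunit of RNA polymerase II and whose stop faces the gap. The left zone held an end of 16 coding genes and the right one of 3.

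The widest zones all reached the limit on at least 1 side. At chr2:164760001-164961000 both arms were 100 kb long around a breakpoint 2.79 kb from Pltp, a phospholipid transfer protein gene, and 18.9 kb from Pcif1, an mRNA cap methyltransferase gene, which diverge; 15 coding genes had an end inside. At chr8:3455001-3656000 both arms were also at the limit, between Pnpla6, a lysophospholipase gene, and Rps23rg1, and the nearest other breakpoint was 2743 kb away, the farthest among the members. The zone chr13:100659001-100859000, 199 kb wide, broke 1.17 kb from Cenph, a kinetochore gene, and held Ccnb1 and Cdk7 of the cell cycle machinery. The zone chr17:21384001-21584000, 199 kb wide, lay in a zinc finger cluster between Zfp51 and Zfp53, and chr9:44294001-44493000, 198 kb wide, broke 0.131 kb from Hyou1, an endoplasmic reticulum chaperone gene, with Slc37a4, a glucose-6-phosphate transporter gene, on the other side.

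The narrowest zone, chr3:89940001-89986000, was 45 kb wide and broke 3.16 kb from Atp8b2, a lipid flippase gene, and 28.9 kb from Hax1, a mitochondrial protein gene. At chr10:24129001-24180000 a zone of 50 kb broke 2.79 kb from Stx7, an endosomal syntaxin gene, at the edge of the trace amine receptor array, whose nearest gene Taar9 was 37.0 kb away. The zone without a coding gene end inside was 51 kb wide, and at chr7:126779001-126833000 a zone of 53 kb broke between the diverging genes Aldoa, the glycolytic aldolase, 5.51 kb away and Tlcd3b 7.54 kb away. The last of these had 25 ends within 100 kb, against 27, 23, 13, 11 and 26 for the 5 widest zones in the order given.

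Ribosomal protein, RNA polymerase and splicing factor genes had a higher share in these zones than all coding genes. Of all 20558 coding genes, 1196 had an end inside a member zone, 5.82%, and each list is read against this share with no test. Cytosolic ribosomal protein genes had 14 of 78 (17.9%, upper bound 27.9), RNA polymerase subunits 5 of 28 (17.9%) and splicing factors 9 of 52 (17.3%). Genes named Rab with a number, most of them GTPases that direct vesicle traffic, had 8 of 65 (12.3%, 6.37 to 22.5), and 1 of the 8, Rab11fip5, encodes a partner of Rab11 rather than a GTPase. DNA replication genes had 5 of 42 (11.9%, lower bound 5.19) and translation initiation factors 6 of 53 (11.3%, lower bound 5.29), and both intervals include the share of all genes. These lists also had a higher share in zones of any kind than the 32.4% of all coding genes. The shares were 56.4% of ribosomal protein, 55.8% of splicing factor, 50.8% of Rab and 49.1% of initiation factor genes. RNA polymerase subunits had 46.4% and DNA replication genes 45.2%. Mitochondrial ribosomal proteins at 7.69% (6 of 78), oxidative phosphorylation genes, Cox assembly factors included, at 6.12% (6 of 98) and proteasome subunits at 5.13% (2 of 39) lay near the share of all genes. The cytosolic ribosomal protein and RNA polymerase lists also stood in crowded places, each with a median of 12 gene ends within 100 kb of its genes. All coding genes had a median of 9, splicing factors 9.5 and the Rab list 8.

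Single genes of these lists came close to a breakpoint. On chromosome 11 Rab34 lay 0.927 kb to the right and Rpl23a 3.92 kb to the left of the same breakpoint, in a gap of 4.84 kb. Rpa2 lay 0.860 kb from its breakpoint, in a zone 74 kb wide, and Orc2, a subunit of the origin recognition complex, 4.39 kb from another in a zone 72 kb wide. Other replication genes were inside a zone but farther from its breakpoint, with Pole2 of DNA polymerase epsilon at 48.3 kb and Fen1, the flap endonuclease of Okazaki fragment maturation, at 54.6 kb. Zfp408, at 0.256 kb with its stop towards the breakpoint, and Zfp74, at 0.352 kb from its annotated end, were the nearest zinc finger genes.

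Dense gene arrays differed from each other. Zfp zinc finger genes, many of which stand in arrays, had 33 of 388 inside (8.51%, 6.12 to 11.7), spread over 17 zones. Histone genes had 6 of 77 (7.79%), in 2 zones, with H4c8, H2ac10 and H3c8 at 63.5 to 67.9 kb from 1 breakpoint on chromosome 13 and H2ax at 56.4 kb from another. Olfactory receptors had 24 of 1103 (2.18%, 1.47 to 3.22), in 7 zones. Keratin genes (0 of 109, which allows up to 3.40%), protocadherins (0 of 67, up to 5.42%), Hox genes (0 of 39, up to 8.97%), MHC genes (0 of 35, up to 9.89%) and vomeronasal receptors (0 of 349, up to 1.09%) had no end in a member zone, with the upper Wilson bound in brackets. Keratin and protocadherin genes nevertheless had medians of 20 and 28 gene ends within 100 kb. Of 20 pluripotency factors 0 were in a member zone (up to 16.1%) and 11 in any zone, with a median of 4 gene ends around them. The upper bounds for Hox genes, MHC genes and pluripotency factors lie above the 5.82% of all coding genes.

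**Figure D5:**
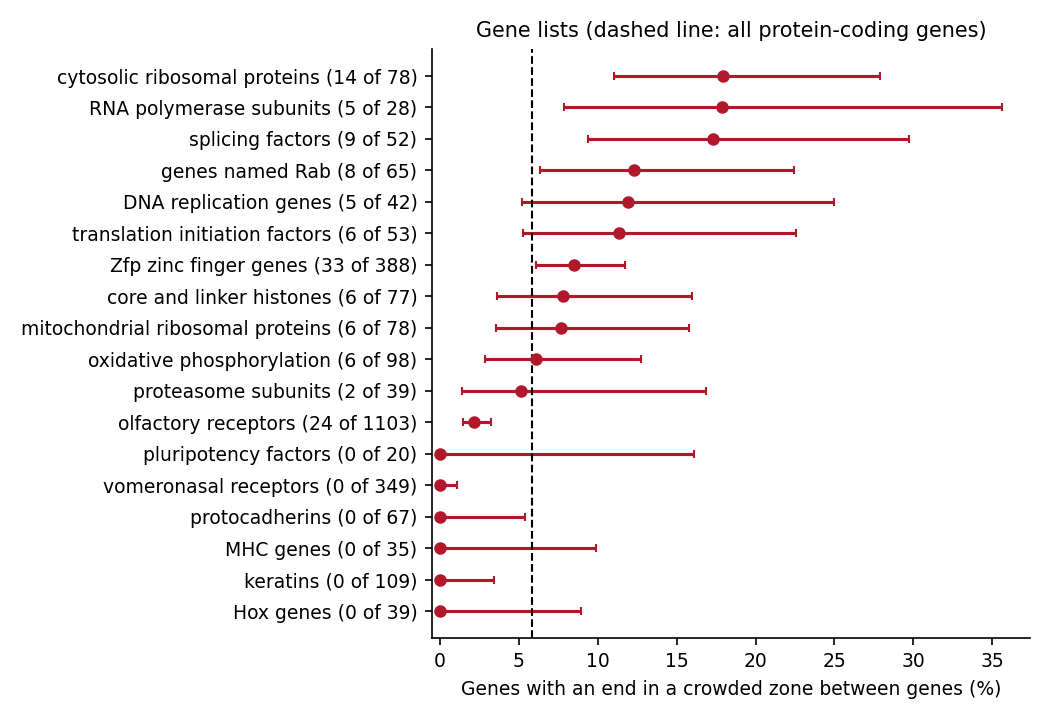
Share of the genes of each list with an end inside a crowded zone between genes (x axis, percent; counts in the row names), with Wilson 95% intervals as bars. The dashed line marks the 5.82% of all coding genes; cytosolic ribosomal protein, RNA polymerase and splicing factor genes stand at 17.3 to 17.9% and 6 lists stand at 0.

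Genes without a protein product were annotated near many of these breakpoints, and the rule did not read them. A long non-coding RNA gene lay within 20 kb of 87 breakpoints (40.5%, 34.1 to 47.1), against 34.5% of all other zones and 27.7% of the sequence that meets the rule, but 36.2% of it without receptor surroundings. Its body covered the breakpoint in 23 zones (10.7%, 7.23 to 15.5), against 7.95% of the sequence, or 10.5% without receptor surroundings. A miRNA gene lay within 20 kb of 14 breakpoints (6.51%, 3.92 to 10.6), against 2.70% of other zones and 3.88% of the sequence, or 5.30% without receptor surroundings. Pseudogenes were within 20 kb of 44 breakpoints (20.5%), against 16.1% of other zones and 29.7% of the sequence. Without receptor surroundings 23.8% of the sequence had a pseudogene in reach, so for all 3 kinds the interval of the zones includes the value of that sequence.

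The miRNA genes were scattered over the 14 zones, while tRNA genes and some small nucleolar RNA genes stood in groups. Mir150, known for its role in lymphocyte maturation, lay 0.257 kb from a breakpoint on chromosome 7. The small nucleolar RNA genes Snord42b, Snord4a and Snord42a lay 4.39 to 6.15 kb from the breakpoint between Rpl23a and Rab34 on chromosome 11. Mir6969 lay 0.941 kb from a breakpoint on chromosome 17, and Mir146b, known for damping innate immune signalling, 4.63 kb from one on chromosome 19. A tRNA gene lay within 20 kb of 5 breakpoints (2.33%, 0.997 to 5.33), against 0.609% of other zones and 1.23% of the sequence, or 1.56% without receptor surroundings. The interval of the zones includes both values of the sequence. At chr13:21875001-22020000, 13 tRNA genes lay within 20 kb, the nearest 0.204 kb from the breakpoint, and at chr13:23432001-23548000 the nearest of 4 lay 0.335 kb away.

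Chromosomes contributed unequally. Chromosome 11 had the most members, 22 of its 177 zones (12.4%), and chromosome 19 the highest share, 14 of 91 (15.4%, 9.39 to 24.2), followed by chromosome 16 with 14 of 111 (12.6%). Chromosomes 18, 12 and 13 had 3 of 92 (3.26%), 5 of 145 (3.45%) and 5 of 138 (3.62%). Per Mb of crowded sequence between genes the order was another: chromosome 7, with 13.0 Mb of it, had 1.23 breakpoints per Mb (0.701 to 1.99) and chromosome 2, with 9.78 Mb, 1.64 (0.935 to 2.66), while chromosome 16 had 4.44 (2.43 to 7.45) in 3.15 Mb and chromosome 1 had 4.42 (2.36 to 7.56) in 2.94 Mb. Chromosome 18 had 0.606 Mb of such sequence, and its 4.95 per Mb rested on 3 breakpoints.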

How the data were processed

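The members and the gene lists were chosen with earlier results of these data known. The submitters' processing notes name SAMtools, Bowtie, BWA 0.7.13, Picard 2.8.2, bcl2fastq, and Trim Galore 0.4.2, with mm10 as build. Their roles, the zone caller and its thresholds (not given in the sources used here) could not be checked. The labels' extraction text, the same for every sample, describes immunoprecipitated nucleosomes and capture of EdU-labelled strands.

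Per the file headers, the deposited list holds for each zone a breakpoint bin of 1 kb, a left and a right edge, and distances in bp. The size equalled the difference of both distances in all 2844 entries, which lay on chromosomes 1 to 19. Depth is unknown and replicates could not be compared.

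Gene positions and biotypes came from the RefSeq table of GRCm38.p6 (20558 coding genes of 46709; 333 genes on scaffolds, recognised by starts before 3 Mb or out of order, left out). Strand came from the promoter table, which held 16457 coding genes (80.1%) and none on chromosome 18. The rule was applied to every 1 kb bin for comparison. Medians have order-statistic intervals, shares Wilson intervals and densities exact Poisson intervals (95%). Flanking genes are the nearest coding genes on either side. Python 3.11.15, numpy 2.4.6, pandas 2.3.3, SciPy 1.17.1 and matplotlib 3.10.9 were used, and the scripts were tested on simulated data.

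Named were the 6 members with the most gene ends, the 5 widest and 5 narrowest with their flanking genes, up to 4 genes per list nearest to a breakpoint, and 6 promoters nearest to one; a few items so chosen are not reported here. Other genes inside named zones, the extreme gaps, the receptor-rich members and the non-coding genes were picked after their values were seen. Alternatives changed the number of gene ends, the window, the kinds of genes, the point tested and the zones admitted.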

Additional observations from a re-analysis of the deposited data

How the results depend on the processing

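Of 72 alternative values, 56 were counted as unchanged and 16 as moved, and the cause was not tested. For measures with an interval, unchanged meant within the error of the value reported. The number of zones had no such interval, so its alternatives were not judged by error. Among them 265, 182 and 191 zones were counted as unchanged against 215. With more than 15 gene ends, 83 zones met the rule, at 2.04 per Mb and in gaps of 17.6 kb. With more than 6 there were 505, 308 kb from the nearest breakpoint, in gaps of 28.7 kb and 6.22 kb from a gene end. More than 5 ends within 50 kb gave 2.89 per Mb. Genes of all kinds gave 657 zones, a nearest breakpoint at 308 kb, 28.1% diverging flanks against 20.7% of such sequence, and 67.2% gene-body cover at 50 kb. Zones with both arms under the limit had a median width of 103 kb, which leaving out the longest arms lowers by design. Choice by the point midway between the edges gave 103 kb, with an arm at the limit in 9.95% of zones. Leaving out receptor surroundings gave 3.24 per Mb, and the excess of gene-body cover at 50 kb over such sequence was then 19.1 percentage points, against 29.4 with them. Across the alternatives, diverging flanks exceeded those of the sequence by 7.32 to 13.9 percentage points, gene-body cover at 50 kb by 19.1 to 32.8, and the nearest breakpoint was 63 to 109 kb closer than for other zones, whereas the difference in width ranged from -9 to 10 kb. The share of arms at the limit has no value where such zones are left out. The receptor split, the omission of overlapping zones, and the settings for gene-body cover and long non-coding RNA genes were chosen after seeing the data. No paired analysis was possible because 1 library has a file. The unknown depth limits every count.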

Other observations

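Of the 215 crowded zones between genes, 6 lay where at least 50% of the gene ends belonged to olfactory or vomeronasal receptor genes. On chromosome 2 they spanned chr2:87405001-87545000, between the diverging genes Pramel7 and Pramel6, chr2:89517001-89599000, with its breakpoint 4.21 kb from Olfr1245, and chr2:90109001-90217000, 20.5 kb from Olfr1270. The others were chr7:108166001-108269000, 15.1 kb from Olfr487, chr9:38316001-38455000, 8.67 kb from Olfr147, and chr11:49190001-49291000, between Zfp62 and Mgat1, a glycosylation enzyme gene. Their widths ran from 81 to 139 kb, and none had an arm at the limit. The nearest other breakpoint was 398 to 2067 kb away, above the median of 274 kb over all 215 zones in each of the 6. The breakpoints at Pramel6, which belongs to a family active in early embryos, and beside Zfp62 and Mgat1 lay next to genes that are not receptors, whereas the other 4 lay between olfactory receptor genes on both sides.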
